A study of Arabidopsis thaliana with 12 samples.

Results

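The 30 genes described here were those of a cold-recovery experiment in Arabidopsis thaliana whose spots were brighter, in the values as deposited, after recovery than in control plants. They were selected on the measured intensities themselves. A probe had to name a single gene, stand above 0 on all 12 arrays, and have a mean over the 6 recovered arrays of at least 1.1 times the mean over the 6 control arrays. Of 468 single-gene probes above 0 on every array, 38 met this ratio, and 8 of these loci were left out by name, among them subunits of both photosystems, which left 30. Because the contrast of recovered against control plants chose the genes, every ratio, difference and call between these groups below describes that choice and is not a test of it.

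All plants were wild type, ecotype Columbia 0. The 6 control samples came from plants at 20 °C in medium light throughout. The 6 recovered samples came from plants given 24 h at 4 °C in medium light, described in the labels as photoinhibitory, followed by 24 h back at 20 °C in medium light. Total RNA was hybridized to arrays of 3439 probes, with 1 value per probe and sample. The labels name no tissue, and no sample analysed here comes from the cold itself, so differences carried over from the cold and those that began on rewarming cannot be told apart. In total RNA of whole samples, a change in the mixture of cells and a change in RNA per cell cannot be told apart either.

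As background, leaves in the cold go on absorbing light while the enzymes that use its energy slow down. Excess excitation then damages photosystem II, the state called photoinhibition, and reactive oxygen species form in the plastid. Rewarming lets repair, protein synthesis and carbon metabolism resume, and cold also engages abscisic acid and AP2/ERF transcription factors, which change the levels of many stress-associated genes.

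The arrays of the groups differed as a whole. Intensities of all probes summed to 3627 to 3745 on control arrays and to 3153 to 3267 on recovered arrays, in arbitrary units. The median of the 2409 probes above 0 everywhere was 0.678 to 0.714 on control arrays and 0.168 to 0.205 on recovered arrays. Against this, the 30 genes held 4.87% to 5.42% of an array's total in control samples and 9.07% to 10.6% in recovered samples. The part of the array-wide shift in the genes' differences was not tested. The labels do not say whether replicate samples were separate plants or cultures, so their spread may be technical.

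The median ratio of recovered to control mean was 1.44 over the 30 genes and 0.327 over all 468 eligible probes. A ratio of at least 2 was found for 5 genes, and 14 genes were at 1.5 or more. Every recovered array lay above every control array for 16 of the 30 genes, where 7.35% of all 2409 probes met the same condition. These 16 had ratios from 1.13 to 2.80, and the 14 genes whose groups overlapped had ratios from 1.11 to 1.89, so a larger ratio did not by itself mean separate groups.

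**Figure D1:**
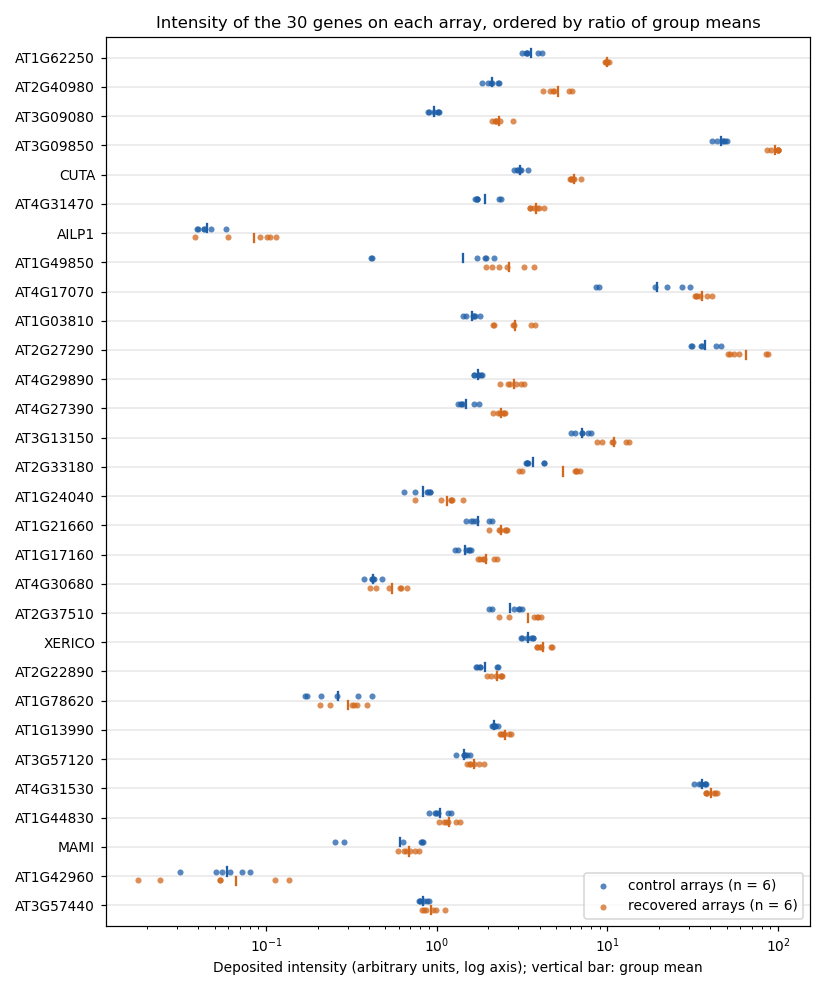
Deposited intensity of the 30 genes on each array (x axis, arbitrary units, log scale), with 6 control and 6 recovered arrays as points and group means as vertical bars. Genes are ordered by the ratio of group means, from 2.80 for AT1G62250 at the top to 1.11 for AT3G57440 at the bottom, and control means span 0.0451 to 46.5.

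The gene table gave a symbol of its own for 4 of the 30 genes, CUTA, AILP1, XERICO and MAMI, and a locus name alone for the other 26. Roles of loci without a symbol are stated as general background knowledge, since the deposited values and the gene table hold none. With that knowledge 19 genes were placed in 4 role groups, and 11 were given no role, which does not mean that none is known. The counts and medians of the groups depend on this placing. The groups held 6 metabolic enzymes, 5 proteins of RNA, translation and folding, 4 metal and stress-associated proteins and 4 regulators and signalling proteins. Median ratios of the groups were 1.251, 1.36, 1.93 and 1.19 in that order, and 1.75 for the 11 genes without a role. No role group held more than 6 of the 30 genes.

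Among the metal and stress-associated proteins, CUTA (AT2G33740), a copper-binding protein of the chloroplast, had clearly separate groups. Its intensity ran from 2.84 to 3.44 on control arrays (median 3.03) and from 6.05 to 7.003 on recovered arrays (median 6.22). The means were 3.06 ± 0.209 and 6.33 ± 0.353 (SD, n = 6 each), a ratio of 2.07. Recovered sample 2 was the highest and lay apart from the other recovered samples, which were between 6.05 and 6.36.

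AT4G31470 belongs to the CAP superfamily, named in part for pathogenesis-related protein 1, a secreted defence protein. Its control values ran from 1.67 to 2.37 (median 1.73) and its recovered values from 3.49 to 4.24 (median 3.79). Controls 1 and 2 were the brightest controls, with a mean of 2.34 against 1.72 and 1.70 for samples 3 and 4 and samples 5 and 6, yet all stayed below the recovered arrays. The means were 1.92 ± 0.326 and 3.80 ± 0.289 (SD, n = 6 each), a ratio of 1.98.

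AILP1 (AT5G19140), an aluminium-induced protein, was the dimmest of the 30 genes on control arrays. It ran from 0.0394 to 0.0579 in control samples (median 0.0431) and from 0.0383 to 0.115 in recovered samples (median 0.0966). Recovered sample 2 was below every control, and the other 5 recovered arrays were above every control. The ratio of means was 1.89, at 0.0451 ± 0.00689 and 0.0852 ± 0.0297 (SD, n = 6 each), near the low end of the arrays' range, where the background is not known. MAMI (AT5G54110), a membrane-associated mannitol-induced protein, had means of 0.607 ± 0.272 and 0.687 ± 0.0696 (SD, n = 6 each), a ratio of 1.13. No recovered array exceeded the highest control (0.833), and the lower control mean came from controls 1 and 2 (0.251 and 0.287), while controls 3 to 6 lay between 0.635 and 0.833. Without controls 1 and 2 its ratio was 0.885.

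Among the regulators, XERICO (AT2G04240), a small RING-H2 protein tied to abscisic acid levels and drought responses, was at 3.13 to 3.67 on control arrays (median 3.47) and 3.84 to 4.74 on recovered arrays (median 4.03). Its means of 3.42 ± 0.245 and 4.20 ± 0.405 (SD, n = 6 each) gave a ratio of 1.23. The groups did not overlap despite the modest ratio. XERICO was the single regulator with separate groups.

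AT1G49850, a RING-type zinc finger protein, had the least even control group of the set. Its controls ran from 0.413 to 2.16 (median 1.82), with controls 1 and 2 at a mean of 0.415 and the other 4 from 1.72 to 2.16. Recovered arrays ran from 1.95 to 3.73 (median 2.44), and 4 of the 6 were above every control. The ratio of 1.86 became 1.37 without controls 1 and 2. AT1G44830, a transcription factor of the AP2/ERF family, had means of 1.04 ± 0.119 and 1.18 ± 0.125 (SD, n = 6 each), a ratio of 1.13, and 2 recovered arrays above every control. AT3G57120, a protein kinase family member, had means of 1.45 ± 0.0935 and 1.66 ± 0.150 (SD, n = 6 each), a ratio of 1.14, and 3 recovered arrays above every control. In both genes the groups overlapped.

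Among proteins of RNA, translation and folding, AT3G09850, a G-patch domain protein, had the brightest spot of the set. Its control values ran from 41.2 to 50.1 (median 47.6), and recovered samples 5 and 6 were at 86.2 and 90.7. The other 4 recovered arrays stood at the ceiling of the scale, 100, so the ratio of 2.07 between 46.5 ± 3.31 and 96.2 ± 6.11 (SD, n = 6 each) may understate the difference. All 6 recovered values lay above every control.

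AT3G13150, a pentatricopeptide repeat protein of the family that binds organelle RNA, ran from 6.09 to 7.98 in control samples (median 7.07) and from 8.70 to 13.4 in recovered samples (median 10.7). Its means were 7.06 ± 0.717 and 10.9 ± 1.89 (SD, n = 6 each), a ratio of 1.55. The groups did not overlap, and in each of them samples 1 and 2 were highest and samples 5 and 6 lowest.

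The other 3 genes of this group overlapped between the groups. AT1G21660, a DnaJ-domain protein, had means of 1.75 ± 0.251 and 2.39 ± 0.215 (SD, n = 6 each), a ratio of 1.36, with 5 recovered arrays above every control. AT4G30680 carries the MA3 domain of translation initiation factor eIF4G and had means of 0.423 ± 0.0340 and 0.543 ± 0.105, a ratio of 1.29. AT2G37510, with an RNA recognition motif, had means of 2.70 ± 0.495 and 3.43 ± 0.750, a ratio of 1.27. In each of the last 2 genes, recovered samples 1 and 2 lay within the control range and the other 4 above it.

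Among metabolic enzymes, AT4G29890 resembles choline monooxygenase, which in spinach starts the synthesis of the osmoprotectant glycine betaine. It ran from 1.65 to 1.83 on control arrays (median 1.75) and from 2.33 to 3.26 on recovered arrays (median 2.80). The ratio of means, 1.74 ± 0.0774 and 2.82 ± 0.340 (SD, n = 6 each), was 1.62, the largest of the 6 enzymes, and the control group was among the most even of the set, with an SD of 4.44% of its mean.

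AT1G17160, a ribokinase that returns free ribose to sugar phosphate metabolism, ran from 1.28 to 1.58 in control samples (median 1.51) and from 1.74 to 2.25 in recovered samples (median 1.88), a ratio of means of 1.33. Its groups did not overlap. AT4G31530, a Rossmann-fold protein that binds NAD(P), was bright and nearly level. Its controls ran from 32.0 to 37.7 (median 36.2) and its recovered arrays from 37.7 to 44.0 (median 40.3), a ratio of 1.13, and the lowest recovered array exceeded the highest control by a margin far smaller than the SD within the groups (2.27 and 2.81).

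The remaining enzymes overlapped between the groups. AT1G24040, an N-acetyltransferase of the GCN5-related family, had means of 0.829 ± 0.112 and 1.15 ± 0.229 (SD, n = 6 each), a ratio of 1.38, with 5 recovered arrays above every control and recovered sample 6 at 0.746. AT2G22890, a relative of the plastid desaturase FAD4 that acts on phosphatidylglycerol, had means of 1.92 ± 0.276 and 2.25 ± 0.181, a ratio of 1.17. AT1G78620, the phytyl-phosphate kinase that feeds tocopherol synthesis, had means of 0.262 ± 0.0998 and 0.303 ± 0.0685, a ratio of 1.16. For AT1G78620 no recovered array exceeded the highest control, and the ratio was 0.985 without controls 1 and 2.

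The 11 genes without a role included the 3 largest ratios of the set. AT1G62250 had the largest, 2.80, with control values from 3.14 to 4.12 (median 3.37) and recovered values from 9.70 to 10.2 (median 9.89). Its recovered group was the most even of all, with an SD of 1.58% of the mean. AT2G40980 ran from 1.84 to 2.30 in control samples (median 2.10) and from 4.20 to 6.18 in recovered samples (median 4.81), a ratio of 2.43. AT3G09080 ran from 0.887 to 1.03 (median 0.989) and from 2.10 to 2.80 (median 2.22), a ratio of 2.39. None of these 3 genes had overlapping groups.

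AT4G17070 had controls from 8.52 to 30.6 (median 20.6) and recovered arrays from 32.5 to 41.2 (median 34.1), a ratio of 1.83 that was 1.44 without controls 1 and 2. AT2G27290 had controls from 31.0 to 46.2 (median 35.4) and recovered arrays from 51.1 to 86.9 (median 57.0), a ratio of 1.75. In AT2G27290 samples 3 and 4 were the brightest of their group in control and recovered plants alike, and the ratio without recovered samples 3 and 4 was 1.46. AT1G03810 had controls from 1.42 to 1.79 (median 1.64) and recovered arrays from 2.13 to 3.76 (median 2.81), a ratio of 1.78. These 3 genes had separate groups but an uneven control or recovered group.

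AT4G27390 ran from 1.32 to 1.76 in control samples (median 1.41) and from 2.14 to 2.52 in recovered samples (median 2.38), a ratio of 1.59. AT1G13990 ran from 2.11 to 2.29 (median 2.17) and from 2.34 to 2.73 (median 2.45), a ratio of 1.15. Both had separate groups, and AT1G13990 had the most even controls of the set, with an SD of 2.95% of their mean. AT2G33180 had means of 3.66 ± 0.450 and 5.45 ± 1.84 (SD, n = 6 each), a ratio of 1.49, but recovered samples 1 and 2 (mean 3.09) lay below every control while the other 4 lay above every control. AT1G42960 and AT3G57440 stood near the threshold.

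The 3 genes just inside the threshold were MAMI at a ratio of 1.131, AT1G42960 at 1.131 and AT3G57440 at 1.11. The 3 eligible genes just outside it were AT1G68660 at 1.09, AT1G74470 at 1.08 and AT4G05030 at 1.08. AT1G42960 was dim, with means of 0.0586 ± 0.0172 and 0.0663 ± 0.0480 (SD, n = 6 each), 2 recovered arrays above every control and 2 below every control. Its recovered median, 0.0537, was below its control median, 0.0584, and the ratio without recovered sample 3 was 0.893. AT3G57440 had means of 0.834 ± 0.0487 and 0.926 ± 0.112 (SD, n = 6 each). These 6 genes spanned ratios from 1.08 to 1.13 with no wide gap at the threshold.

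Leaving out each sample in turn, and then each pair of consecutive samples, kept 23 of the 30 genes at a ratio of 1.1 or more throughout. MAMI, AT1G42960, AT1G78620, AT1G44830 and AT3G57440 fell short of it when some single sample was left out. AT3G57120 (1.08) and AT4G31530 (1.096) did so only without recovered samples 1 and 2. These 7 genes include no gene with a ratio above 1.16.

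Most of the 30 genes ranked high on the control arrays. The control mean is part of the ratio that chose them, and most probes were dimmer on recovered arrays, so these ranks are also a description of the choice. Ranked among the 2409 probes of an array, the median gene of the set stood at percentile 85.6 in control samples, against 47.5 for the median eligible probe, and 20 of the 30 genes were above percentile 75, as were 21.8% of the eligible probes. After recovery the median gene of the set stood at percentile 92.0, against 43.1 for the median eligible probe. Above percentile 75 were then 27 of the 30 genes and 20.9% of the eligible probes. The rank was higher after recovery for 28 of the 30 genes and for 52.1% of the eligible probes. The 2 exceptions, AT4G31530 and AT2G27290, dropped by at most 0.367 percentile points within the top of the range. The largest shift was that of AT1G78620, from percentile 11.9 to 63.1, followed by AT4G30680, from 26.5 to 75.2.

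**Figure D2:**
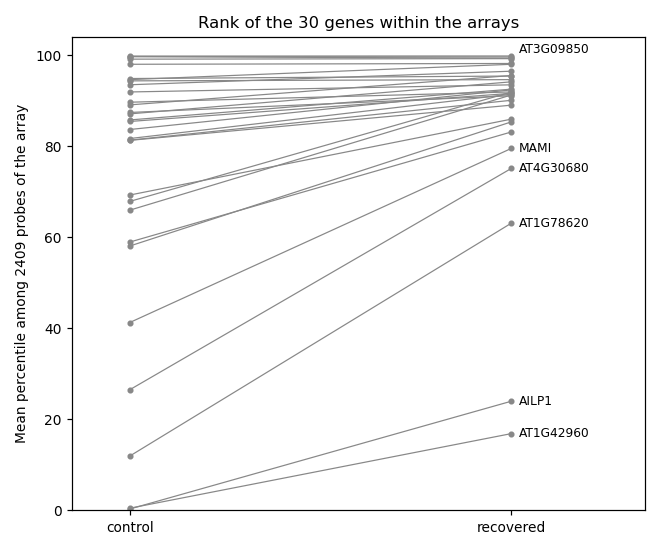
Mean percentile of each of the 30 genes among the 2409 probes above 0 on every array (y axis), in control and recovered samples, with 1 line per gene. Genes near the top, such as AT3G09850, could hardly move, while AT1G78620 went from 11.9 to 63.1 and AILP1 from 0.242 to 24.0.

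How far each gene differed depended on the scaling of the arrays, in a way that followed its brightness. After quantile normalization, which gives all arrays the same distribution, the median log2 difference of recovered minus control was 1.04 over the 30 genes and 0.08 over all 2409 probes. As deposited these medians were 0.48 and -1.58, after median centring 2.41 and 0.35, and after cyclic loess 0.60 and -0.07. In quantile-normalized values the 10 genes with the highest control means lay between -0.86 and 1.11, and the 10 with the lowest between 1.17 and 4.19. As deposited the same genes lay between 0.18 and 1.49 and between -0.13 and 1.251. Spearman's rho between control mean and log2 difference across the 30 genes was -0.921 after quantile normalization. Spearman's rho between control mean and ratio of deposited means was 0.334. Genes are not independent replicates, and both members of each relation share the control arrays. The choice also held the deposited ratios in a narrow range. How far the choice and the scaling set the relation after quantile normalization was not tested, and nothing about the genes is read from it.

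**Figure D3:**
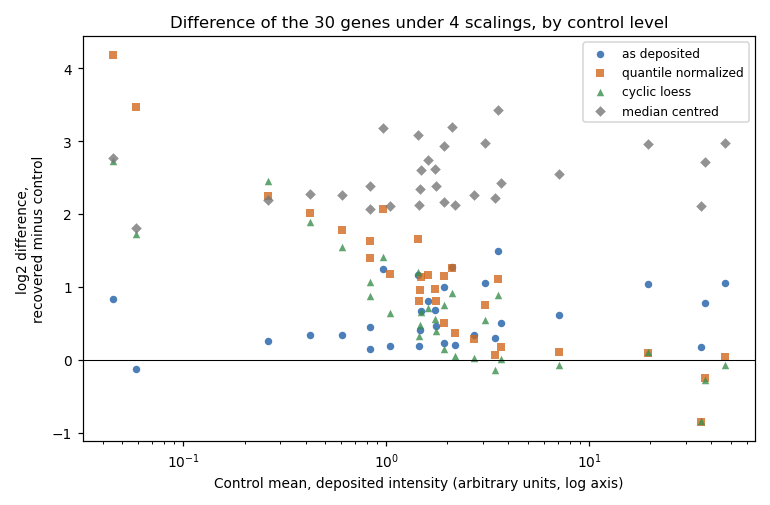
Log2 difference of recovered minus control for the 30 genes (y axis) against their control mean (x axis, arbitrary units, log scale) under 4 scalings. Quantile-normalized differences tend to be lower for brighter genes and range from 4.19 for AILP1 to -0.86 for AT4G31530. The still brighter AT2G27290 and AT3G09850 are at -0.26 and 0.03. Median-centred differences are the deposited ones moved up by a constant.

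Limma called 22 of the 30 genes higher after quantile normalization, where it called 37.5% of all 2409 probes higher, and 1 lower, where it called 31.1% lower (adjusted p under 0.05, Benjamini-Hochberg over all probes). As deposited it called 20 higher, with 9.88% of all probes, and 0 lower, with 75.5% of all probes. Since the genes were chosen on this contrast, nothing is read from these counts. The gene called lower was AT4G31530, with log2 differences of -0.86 after quantile normalization, -0.84 after cyclic loess, 0.18 as deposited and 2.11 after median centring. The dim AT1G42960 was called higher after quantile normalization, at 3.47, though its log2 difference as deposited was -0.13. The 7 genes not called after quantile normalization were AT3G09850, AT2G27290, AT4G17070, AT3G13150, AT2G33180, XERICO and AT2G37510, all with control means of 2.70 or more. Differences above 0 in all 4 scalings were found for 24 genes, a count not made over all probes. The 4 scalings are not separate checks, since the choice used the deposited values and median centring moves those by a constant. Called higher in all 4 were 14 genes and 7.85% of all probes.

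Within the groups, which the choice of genes did not compare, consecutive samples lay together. In control samples the absolute log2 gap was smaller between consecutive samples (1 and 2, 3 and 4, 5 and 6) than between other samples for 26 of the 30 genes, with medians of 0.0723 and 0.220. In recovered samples this held for 25 of the 30, with medians of 0.102 and 0.200. The same order was found for 90.5% of all 2409 probes in control and 66.9% in recovered samples. For 12 of the 30 genes, the largest fold between log2 means of consecutive samples within a group exceeded the ratio of group means. This was not counted over all probes, so 12 of 30 is a description alone. After averaging consecutive samples, the 3 recovered values lay above the 3 control values for 20 genes, as in 9.22% of all probes. That condition is weaker than the one on single arrays, which 16 genes and 7.35% of all probes met. No label says that consecutive samples are technical repeats, but each group may hold fewer than 6 independent samples.

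**Figure D4:**
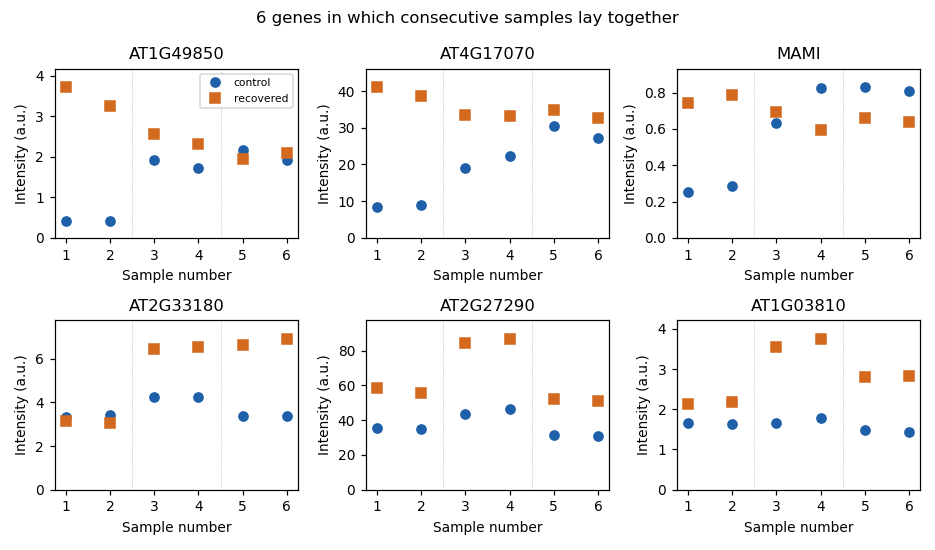
Deposited intensity (y axis, arbitrary units, from 0) by sample number (x axis) in control and recovered samples for 6 genes picked after their values were seen, with dotted lines between consecutive pairs. Controls 1 and 2 lie far below controls 3 to 6 in AT1G49850, AT4G17070 and MAMI, and recovered samples 1 and 2 lie below the other 4 in AT2G33180 and AT1G03810.

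By locus name the 30 genes lay on all 5 nuclear chromosomes, with 10, 7, 5, 6 and 2 genes on chromosomes 1 to 5, where 467 of the 468 eligible probes numbered 107, 93, 87, 92 and 88 and the other 1 had no locus name. In the order of protein-coding genes in the TAIR10.1 gene table, AT4G31470 and AT4G31530 were 6 genes apart. No other pair of the 30 lay within 10 genes of each other.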

How the data were processed

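One intensity per probe was deposited for 12 samples, on a linear scale from 0 to 100. How the authors corrected and scaled these intensities, and the array's build, are not given in the sources used here. Samples were grouped by the labels. Platform annotation named 1 gene for 692 probes, several for 870 and none for 1877. Symbols were taken from the TAIR10.1 gene table, in which 690 of the 692 matched. Key-word classes planned on product descriptions were not usable, because that table holds none and 439 of 468 probes stayed unclassed; no promoter sequence was used here. The genes, their role groups and the alternatives were chosen with earlier results of these data known. The genes named are all 30, and 18 of them are given with group ranges under a rule on ratio, brightness and overlap.

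The 2409 probes above 0 on all arrays were log2 transformed, quantile normalized and fitted with limma 3.58.1 in R 4.3.3 (lmFit, eBayes, two-sided, Benjamini-Hochberg, threshold 0.05, no block). On simulated data the fit alone kept the share of false calls below the threshold. With quantile normalization in front of it, the share on simulated data was several times the threshold. The simulation did not include the likeness of consecutive samples or the array-wide shift between groups seen here. It therefore cannot give the share of false calls in these data, for the fit alone or after quantile normalization. All calls are counted as descriptions, and those after quantile normalization may include many false ones. Means ± SD are of deposited intensities. The number of arrays limits the precision. Alternatives covered scaling, filters, the ratio, an offset, the variance model, blocks, averaging, and leaving out samples. Plots used matplotlib 3.10.9.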

Additional observations from a re-analysis of the deposited data

Results flagged for a closer look

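Among 60 groups of 6 samples (30 genes, 2 groups each), 2 held a single sample far from the rest, and about 3 would be found by chance among independent samples. For AT3G09080, recovered sample 6 was at 2.80 and the others between 2.10 and 2.34. For CUTA, recovered sample 2 was at 7.003 and the others between 6.05 and 6.36. Samples that lie apart together, such as controls 1 and 2 of AT1G49850, cannot be found by this check.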

How the results depend on the processing

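The number of genes that met the rule depended most on scaling: 48 with arrays scaled to the same total (30 of them shared with the 30 genes), 242 with arrays scaled to the same median (30 shared) and 205 with quantile-normalized values (24 shared). A ratio of 1.5 left 14. Medians in place of means gave 32 (27 shared), and leaving out 1 sample gave 28 to 32. Keeping probes with zeros added AT5G14590, AT1G21350, AT4G38490, AT5G19370 and AT3G47080. Each had 4 or 5 zeros among the controls and 1 to 4 among the recovered samples. The median log2 difference of 1.04 became 0.60 after cyclic loess, 0.48 as deposited and 2.41 after median centring, and lay between 0.998 and 1.098 with 1 sample left out.

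Genes called higher numbered 19 to 30 over all alternatives, against 22 in the main fit, where 903 of all 2409 probes were higher. There were 19 after averaging consecutive samples, with 693 of all probes. Without the dimmer 50% of probes there were 19 of the 27 left, with 503 of all 1205 probes. After median centring there were 30, with 1085 of all 2409 probes. The genes were chosen on this contrast, so nothing is read from these counts. Genes called lower numbered 0 as deposited and 0 after median centring, where 1819 and 669 of all 2409 probes were lower. Without controls 1 and 2, or without recovered samples 3 and 4, they numbered 2, with 690 and 740 of all probes. Leaving out such pairs was a choice added after the data were seen. The cause of these changes in the counts was not tested. Replicate numbers shared by the groups were not used as pairs in the main fit, and whether they mark pairs was not settled. Deviations of same-numbered samples had low correlations, from -0.0106 to 0.0958, yet 7 of 12 samples were most like their own number. No limit was set for either measure. With the replicate block 22 genes were higher, with AT1G49850 lost and AT2G37510 gained, and 2 lower, AT4G31530 and AT2G27290. Of all 2409 probes, 878 were then higher and 746 lower. With the replicate block and median centring 30 genes were higher and 0 lower, with 1085 and 663 of all probes. The background is unknown, which limits dim genes such as AILP1 and AT1G42960.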
